A study of Mus musculus with 17 samples.

Results

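Transcripts of 7 genes that receive, make and break down endocannabinoids were examined in the mouse hippocampus: Cnr1, Dagla, Daglb, Mgll, Abhd6, Napepld and Faah. The genes were taken by name from this system, with earlier results of these data known, and they were 7 of the 55450 genes counted and 7 of the 17615 that passed a filter on low counts. RNA-seq was available for 17 adult hippocampi. The epileptic sgLacZ group (n = 6) and the epileptic sgKcna1 group (n = 6) came from mice in which kainic acid, a glutamate receptor agonist, had been injected into the amygdala to start status epilepticus, and the control sgLacZ group (n = 5) came from sham control mice. Only epileptic mice with regular seizures were kept in the study. All groups received AAV9 viruses in the hippocampus that carry CRISPRa, a nuclease-dead Cas9 joined to the activator VP64. Its guide was directed at the promoter of the potassium channel gene Kcna1 (sgKcna1) or at a bacterial gene as a control (sgLacZ). Per the study's methods, the mice were C57BL/6J, the virus was placed in the right ventral hippocampus, the activator was switched on by doxycycline in the diet, and a Camk2a promoter biased it towards excitatory neurons. Cells that the virus did not reach carried no activator, and cells in which that promoter is silent were not its intended target. The paper does not exclude low activity without doxycycline. The labels do not say whether the sequenced hippocampus was the injected one. The labels do not say that each library came from a different mouse, so P-values measure the spread between these libraries. Sham mice with sgKcna1 were not analysed here.

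Endocannabinoids are lipid messengers that a neuron makes on demand and that act backwards across the synapse. 2-arachidonoylglycerol (2-AG) is made from diacylglycerol by the diacylglycerol lipases DAGLα and DAGLβ (Dagla, Daglb), and binds the cannabinoid receptor CB1 (Cnr1) on axon terminals, where CB1 lowers transmitter release. Its action is ended mainly by monoacylglycerol lipase (Mgll) and in part by ABHD6 (Abhd6). Anandamide, the other main endocannabinoid, can be made by NAPE-PLD (Napepld) and is broken down by fatty acid amide hydrolase (Faah). In the hippocampus CB1 is most abundant on the terminals of interneurons that contain cholecystokinin and is also found at lower density on glutamatergic terminals, and the system is known to restrain neuronal firing during seizures.

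Between 11839240 and 28311328 reads per library fell in genes, and 3 reads corresponded to between 0.106 and 0.253 CPM (read counts scaled to library size), which covers counting error only. The lowest count of any of the 7 genes in any library was 98 reads, for Daglb. Reads that could not be mapped made up 19.5% to 27.7% of a control library, 11.0% to 24.1% of an epileptic sgLacZ library and 19.1% to 41.5% of an epileptic sgKcna1 library, the last value belonging to replicate 12. Libraries of epileptic sgLacZ replicate 5 and epileptic sgKcna1 replicate 12 decided several of the results below, and values without them are given. The targeted gene Kcna1 did not separate the groups. Its CPM was 35.1 ± 6.71 in control sgLacZ (SD, n = 5), 30.1 ± 14.5 in epileptic sgLacZ (SD, n = 6) and 38.2 ± 46.5 in epileptic sgKcna1 libraries (SD, n = 6). Epileptic sgKcna1 replicate 12 was at 133 CPM and the other 5 libraries of that group at 29.5 or less. The difference between the 2 epileptic groups did not pass the test of edgeR, a quasi-likelihood F test with adjustment after Benjamini and Hochberg (edgeR adjusted P = 0.706). By quantitative PCR the paper reports more Kcna1 in injected than in contralateral hippocampi of epileptic mice given sgKcna1. It saw no clear increase by RNA-seq, which it says may reflect a low number of Kcna1 reads. The 5 markers of excitatory neurons, which include Camk2a and the granule cell gene Prox1, summed to at least 3248 CPM in every library.

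All 7 genes were expressed in all 17 libraries. Compared per kilobase of their longest annotated transcript, the gene with the highest level in control hippocampus was Mgll, at 82.5 ± 5.19 CPM per kb (SD, n = 5). It was followed by Abhd6 at 32.3 ± 2.92, Cnr1 at 28.0 ± 2.65, Faah at 24.9 ± 2.82 and Dagla at 16.8 ± 2.79 CPM per kb. Napepld, at 6.31 ± 0.868, and Daglb, at 5.13 ± 1.48 CPM per kb, were lowest. The lowest Mgll library, at 77.7 CPM per kb, lay above all libraries of the other 6 genes, and the lowest Dagla library, at 14.3, lay above all those of Napepld and Daglb. Each of the other neighbours in this order overlapped between libraries. In epileptic sgLacZ hippocampus Mgll was again highest, at 67.2 ± 11.2 CPM per kb (SD, n = 6), and Faah, at 33.4 ± 6.03, came next, ahead of Abhd6 at 30.7 ± 1.20, with overlapping libraries. Transcript lengths are from an older annotation and several of these genes have shorter isoforms, and Daglb is undercounted for the reason given below, so the order is approximate.

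The first question was whether the genes differed between epileptic and control hippocampi that carried the same control guide. None of the 7 genes passed the adjusted threshold of 0.05 in edgeR, against 11.0% of all genes tested (1940 of 17615). Before adjustment 4 of the 7 had P below 0.05, against 34.7% of all genes: Dagla and Faah were higher in epileptic sgLacZ libraries and Mgll was lower, and the unstranded count of Daglb was higher, with the opposite sign when both strand counts were added. DESeq2 called Dagla and Daglb, 2 of 7 against 18.8% of all genes, and limma voom with sample weights called Dagla, Daglb, Mgll and Faah, 4 of 7 against 41.4%. Without epileptic sgLacZ replicate 5 edgeR called 4 of the 7 and 5526 of all genes. Without epileptic sgKcna1 replicate 12 it called 4 of the 7 and 4777 of all genes. That library is in neither group compared here, but the 3 groups share an estimate of the spread. None of the 7 had groups that did not overlap, against 4.39% of all genes. The median log2 fold change of the 7 genes was 0.21 and that of all genes tested 0.02.

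**Figure D1:**
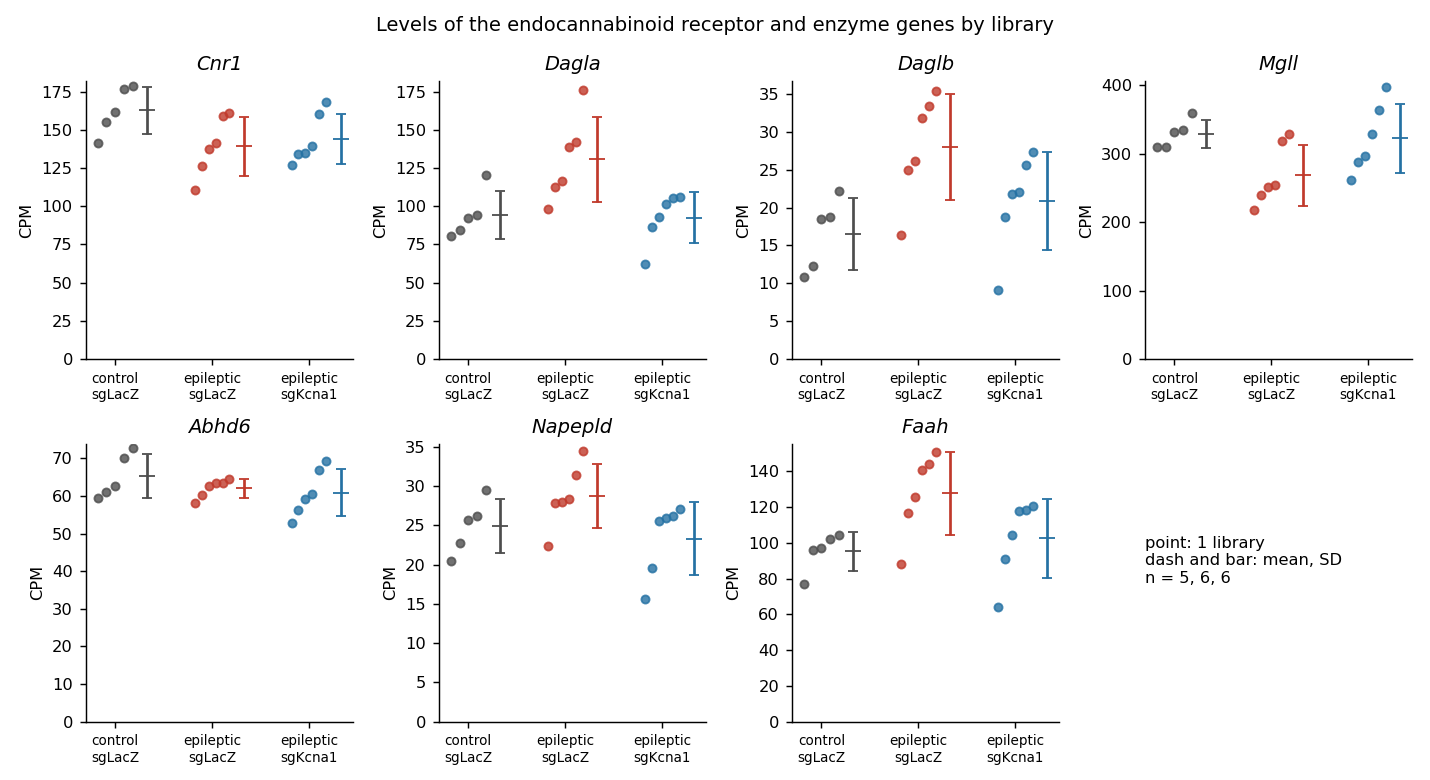
Level of each gene in CPM (vertical axes, each from 0) in 5 control sgLacZ, 6 epileptic sgLacZ and 6 epileptic sgKcna1 libraries. Each point is 1 library, and the dash with its bar is the mean and SD of the group. The groups overlap for all 7 genes. Faah sits above every control library in 5 epileptic sgLacZ libraries and Dagla in 3, and Mgll sits below every control library in 4. Daglb is the unstranded count, which leaves out the reads it shares with Rac1.

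Cnr1 (ENSMUSG00000044288, chromosome 4 from 33923171 to 33948831, GRCm38.p6) encodes CB1. Control sgLacZ libraries had 142, 156, 162, 177 and 179 CPM. Epileptic sgLacZ libraries ranged from 111 to 161 CPM with a median of 139, and epileptic sgKcna1 libraries from 127 to 168 with a median of 137. In either epileptic group 4 of the 6 libraries lay below every control library, and the highest libraries lay among the controls. Against control, epileptic sgLacZ had a log2 fold change of -0.23 with an SE of 0.11 (edgeR adjusted P = 0.144) and epileptic sgKcna1 of -0.18 with an SE of 0.11 (edgeR adjusted P = 0.766), and these 2 comparisons share the control libraries. Between the 2 epileptic groups the log2 fold change was 0.05, with a 95% interval from -0.17 to 0.26 (edgeR adjusted P = 0.800). In bulk tissue fewer cells that express a gene and less RNA of the gene per cell cannot be told apart. That holds for every gene described here. Of 5 markers of cholecystokinin basket cells, cells rich in CB1, only Cck itself was called between epileptic sgLacZ and control libraries (log2 fold change -0.80 with an SE of 0.24, edgeR adjusted P = 0.0426). Of all genes 11.0% were called. The other markers were Slc17a8 at -0.57, Htr3a at -0.20, Tnfaip8l3 at -0.10 and Cxcl14 at 0.03 on the log2 scale. The 5 markers summed to 942 to 1141 CPM in control and 450 to 1149 CPM in epileptic sgLacZ libraries. Most of that sum was Cck, with means of 912 and 524 CPM, so the sum mainly repeats Cck. Cck is also made by pyramidal cells. All 5 passed the filter on low counts, and the part of such cells in the Cnr1 values was not tested.

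Dagla (ENSMUSG00000035735, chromosome 19 from 10245265 to 10304877) encodes DAGLα, the main 2-AG synthase at hippocampal synapses. In control sgLacZ libraries it was at 80.5, 84.4, 92.2, 94.3 and 121 CPM. Epileptic sgLacZ libraries ranged from 98.5 to 176 CPM with a median of 128, and 3 of the 6 lay above every control library. Epileptic sgKcna1 libraries ranged from 62.4 to 106 CPM with a median of 97.5, and all but 1 lay within the range of the controls. The group means were 94.4 ± 15.7 (SD, n = 5), 131 ± 27.8 (SD, n = 6) and 92.6 ± 16.7 CPM (SD, n = 6). The log2 fold change of epileptic sgLacZ against control was 0.47 (95% interval 0.14 to 0.80), which did not pass adjustment (edgeR adjusted P = 0.0554). It passed without epileptic sgLacZ replicate 5 (edgeR adjusted P = 0.0144), without epileptic sgKcna1 replicate 12 (0.0359), without epileptic sgKcna1 replicate 1 (0.0470) and without epileptic sgLacZ replicate 8 (0.0477). With any other library left out it did not pass, and the highest edgeR adjusted P was 0.139. Replicates 5 and 8 of epileptic sgLacZ had the lowest Dagla levels of their group.

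Daglb (ENSMUSG00000039206, chromosome 5 from 143464484 to 143504442) encodes the second diacylglycerol lipase, DAGLβ, known best from microglia and macrophages. In the unstranded counts control sgLacZ libraries were at 10.9, 12.2, 18.5, 18.7 and 22.1 CPM. Epileptic sgLacZ libraries ranged from 16.3 to 35.4 CPM with a median of 29.0, with 5 of the 6 above every control library, and epileptic sgKcna1 libraries from 9.15 to 27.3 with a median of 22.0. Epileptic sgLacZ libraries stood at a log2 fold change from control of 0.77 (95% interval 0.25 to 1.29, edgeR adjusted P = 0.0521). It passed without epileptic sgLacZ replicate 5 (edgeR adjusted P = 0.0110) and without epileptic sgKcna1 replicate 12 (0.0138). With any other library left out it did not pass, and the highest edgeR adjusted P was 0.133. The direction depends on how reads are counted. When the counts of both strands were added, the log2 fold change was -0.72 (edgeR adjusted P = 0.0264).

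Most reads over Daglb are shared with its neighbour. Rac1, which encodes a small GTPase, lies next to it, from 143505481 to 143528031 on the same chromosome. The sum of both strand counts of Daglb exceeded its unstranded count by 2541 to 7422 reads per library, and that excess was equal, read for read, to the excess of Rac1 in 16 of the 17 libraries. Such reads are left out of the unstranded count as ambiguous and are counted for both genes when the strands are added. The unstranded count of Daglb was 3.40% to 7.52% of its strand sum in control sgLacZ libraries, 5.72% to 29.0% in epileptic sgLacZ and 3.08% to 12.6% in epileptic sgKcna1 libraries. In the control libraries 4081 to 7422 reads were shared and in the epileptic sgLacZ libraries 2541 to 5158. Neither count gives the level of Daglb alone, and no direction is given for it.

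**Figure D2:**
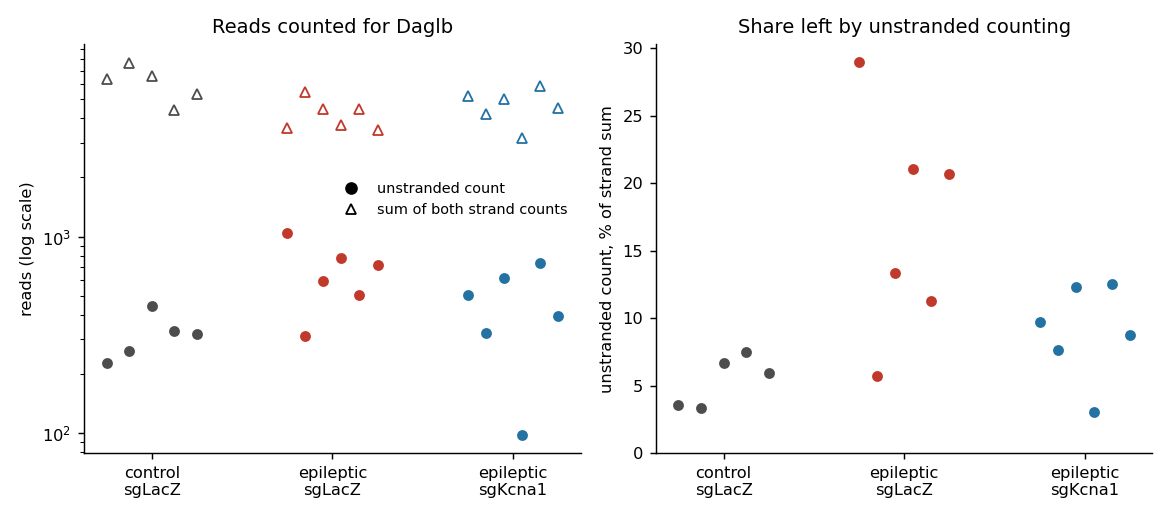
Left, reads counted for Daglb per library (log scale), with filled points for the unstranded count and open triangles for the sum of both strand counts. Right, the unstranded count as a percent of the strand sum. Each symbol is 1 library, grouped as control sgLacZ (n = 5), epileptic sgLacZ (n = 6) and epileptic sgKcna1 (n = 6). The share is highest, up to 29.0%, in epileptic sgLacZ libraries and never above 7.52% in control libraries.

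Mgll (ENSMUSG00000033174, chromosome 6 from 88724412 to 88828360) encodes monoacylglycerol lipase, which breaks down most 2-AG in the brain. Its control sgLacZ levels were 310.0, 310.1, 332, 335 and 359.9 CPM. Epileptic sgLacZ libraries ranged from 218 to 328 CPM with a median of 253, and epileptic sgKcna1 libraries from 262 to 397 with a median of 313. In 4 of the 6 epileptic sgLacZ libraries Mgll was below every control library, and replicates 5 and 8, at 328 and 318 CPM, lay among the controls. The unstranded count of Mgll was 97.5% to 98.5% of its strand sum in control and 92.3% to 98.5% in epileptic sgLacZ libraries. That share was lowest in epileptic sgLacZ replicate 4, which also had the lowest Mgll level. Epileptic sgLacZ libraries stood at a log2 fold change from control of -0.30 (95% interval -0.55 to -0.04, edgeR adjusted P = 0.0970). It passed without epileptic sgLacZ replicate 5, at -0.36 (edgeR adjusted P = 0.0285), and without epileptic sgKcna1 replicate 12, at -0.30 (0.0489). With any other library left out it did not pass, and the highest edgeR adjusted P was 0.210.

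Abhd6 (ENSMUSG00000025277, chromosome 14 from 8002888 to 8056773) encodes the membrane lipase ABHD6, which hydrolyses part of the 2-AG on the side where it is made. Control sgLacZ libraries had 59.5, 61.0, 62.6, 70.0 and 72.8 CPM, epileptic sgLacZ libraries ranged from 58.0 to 64.4 with a median of 63.0, and epileptic sgKcna1 libraries ranged from 52.8 to 69.3 with a median of 59.8. The groups overlapped almost throughout. The log2 fold change of epileptic sgLacZ against control was -0.07, with a 95% interval from -0.25 to 0.11 (edgeR adjusted P = 0.569). For epileptic sgKcna1 it was -0.03 against epileptic sgLacZ and -0.10 against control, and the smaller of the 2 adjusted P from edgeR was 0.816.

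Napepld (ENSMUSG00000044968, chromosome 5 from 21662901 to 21701622) encodes NAPE-PLD, an enzyme of anandamide synthesis. It had 20.5, 22.8, 25.7, 26.3 and 29.5 CPM in control sgLacZ libraries, and epileptic sgLacZ libraries ranged from 22.3 to 34.5 with a median of 28.2, and epileptic sgKcna1 libraries from 15.7 to 27.1 with a median of 25.7. All 3 groups overlapped. Against control, epileptic sgLacZ had a log2 fold change of 0.21 (95% interval -0.10 to 0.51, edgeR adjusted P = 0.321).

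Faah (ENSMUSG00000034171, chromosome 4 from 115996668 to 116018837) encodes fatty acid amide hydrolase, which degrades anandamide. The control sgLacZ levels were 77.1, 95.8, 97.0, 102 and 104 CPM. Epileptic sgLacZ libraries ranged from 88.2 to 151 CPM with a median of 133, and 5 of the 6 lay above every control library, all but replicate 5. Epileptic sgKcna1 libraries ranged from 64.0 to 121 CPM with a median of 111, and replicate 12 was the lowest of all. Against control, epileptic sgLacZ had a log2 fold change of 0.42 (95% interval 0.09 to 0.75, edgeR adjusted P = 0.0744). It passed without epileptic sgLacZ replicate 5, at 0.51 (edgeR adjusted P = 0.0148), and without epileptic sgKcna1 replicate 12, at 0.42 (0.0226). With any other library left out it did not pass, and the highest edgeR adjusted P was 0.180.

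The next question was whether the genes differed between epileptic mice that received sgKcna1 and those that received sgLacZ. None of the 7 passed the adjusted threshold in edgeR, DESeq2 or limma voom, and edgeR called 0% of all genes tested (DESeq2 called 114 or 0.702% and limma voom 12 or 0.0681%, and edgeR 1508 without epileptic sgLacZ replicate 5). Before adjustment 4 of the 7 had P below 0.05, against 19.2% of all genes. Dagla, Napepld and Faah were lower and Mgll was higher in epileptic sgKcna1 libraries. The log2 fold change of Dagla was -0.50 (95% interval -0.81 to -0.19, edgeR adjusted P = 0.213), and 5 of the 6 epileptic sgLacZ libraries, all but replicate 5, lay above every epileptic sgKcna1 library. Without epileptic sgLacZ replicate 5 it was -0.57 and passed (edgeR adjusted P = 0.0421). With any other library left out Dagla did not pass, and the highest edgeR adjusted P was 0.476. For Mgll the log2 fold change was 0.27 (95% interval 0.02 to 0.51, edgeR adjusted P = 0.238), for Faah -0.31 (95% interval -0.63 to -0.0015, edgeR adjusted P = 0.259) and for Napepld -0.30 (95% interval -0.59 to -0.01, edgeR adjusted P = 0.253). Without epileptic sgKcna1 replicate 12 the value of Faah was -0.21 and that of Mgll 0.19. Some cell markers also had an unadjusted P below 0.05 here, where 19.2% of all genes did, and edgeR called none. Of 5 excitatory neuron markers, 4 below 0 and 1 above, 2 did, Prox1 at -0.60 and Slc17a7 at -0.42 on the log2 scale. Of 6 inhibitory neuron markers Vip at 0.76 and Sst at 0.60 did, but 3 of the 6 were below 0. These were Gad1 at -0.02, Gad2 at -0.17 and Slc32a1 at -0.17. Of 4 choroid plexus markers Kl at -1.02 and Clic6 at -1.25 had such a P. So did 1 marker each of 5 for microglia, 4 for ependymal and 3 for endothelial cells. None did of 5 markers each for cholecystokinin basket cells, astrocytes and oligodendrocytes or of 3 for thalamus. The summed level of the excitatory neuron markers was 3479 to 5337 CPM in epileptic sgLacZ and 3329 to 4250 CPM in epileptic sgKcna1 libraries, that of the inhibitory neuron markers 819 to 1380 and 995 to 1464 CPM, and that of the choroid plexus markers 4390 to 11428 and 291 to 7810 CPM. Their part in the values of the 7 genes was not tested. No gene of the 7 had groups that did not overlap, against 0.483% of all genes.

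Epileptic sgKcna1 libraries were last set against control sgLacZ libraries. None of the 7 genes passed at the adjusted threshold, and none had an unadjusted P below 0.05, against 6.77% of all genes (edgeR, with 0% called after adjustment). DESeq2 and limma voom called none of the 7 either, and 36 (0.161%) and 71 (0.403%) of all genes. The log2 fold change of Dagla was -0.03 (95% interval -0.36 to 0.30), that of Mgll was -0.03 (95% interval -0.29 to 0.23) and that of Faah was 0.11 (95% interval -0.22 to 0.44). For Dagla, Mgll and Faah the 3 comparisons read together as 0.47, -0.50 and -0.03, as -0.30, 0.27 and -0.03, and as 0.42, -0.31 and 0.11, on the log2 scale. Each pair of comparisons shares a group of libraries, so opposite signs in the first and second are not independent. Non-overlapping groups were found for 0 of the 7 genes, against 1.14% of all genes.

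**Figure D3:**
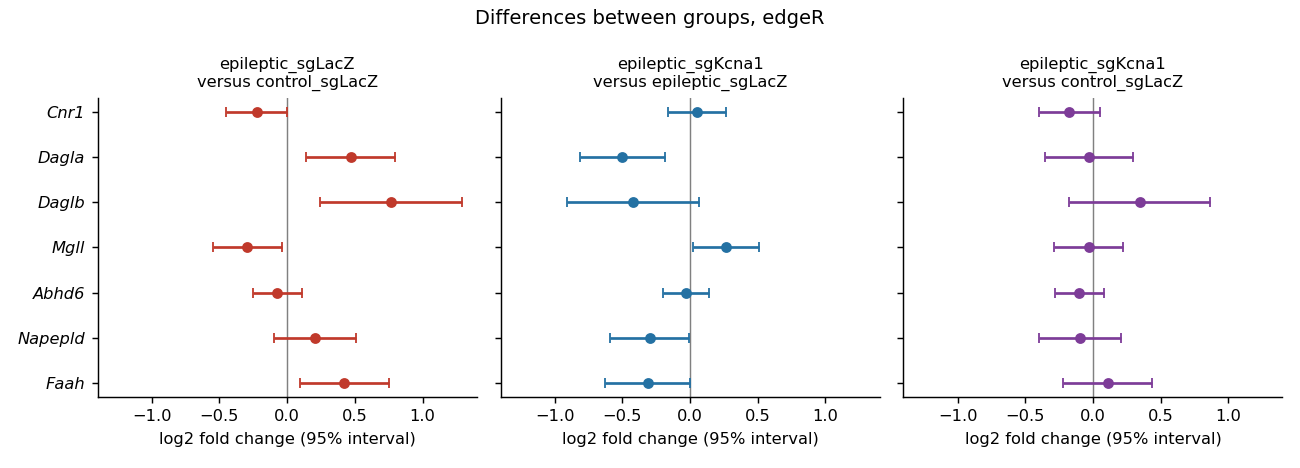
Log2 fold change of each gene (points) with its 95% interval (bars) in the 3 comparisons, from edgeR over all 17 libraries. In the left panel Dagla at 0.47, Faah at 0.42 and the unstranded count of Daglb at 0.77 lie to the right of 0 and Mgll at -0.30 to the left. With both strand counts added Daglb is at -0.72. In the right panel all 7 intervals include 0. The intervals are not adjusted for the number of genes tested.

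On log2 CPM, without a model of the spread across genes, two-sided exact permutation tests gave P below 0.05 in 5 of 21 tests of a gene and a comparison. In epileptic sgLacZ against control libraries these were the unstranded count of Daglb (exact permutation P = 0.0195), Dagla (0.0216), Faah (0.0281) and Mgll (0.0346). In epileptic sgKcna1 against epileptic sgLacZ libraries it was Dagla (0.0108). None passed adjustment over the 21 tests, and the adjusted exact permutation P was 0.145 for each of the 5. The smallest P that these group sizes allow is 0.00216.

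The balance of the main enzyme that makes 2-AG and the main enzyme that breaks it down was also compared within each library, where scaling between libraries cancels. The Dagla to Mgll ratio of CPM was 0.24, 0.27, 0.28, 0.30 and 0.34 in control sgLacZ libraries. It ranged from 0.30 to 0.81 with a median of 0.51 in epileptic sgLacZ libraries and from 0.22 to 0.37 with a median of 0.30 in epileptic sgKcna1 libraries. The 4 epileptic sgLacZ libraries other than replicates 5 and 8 had 0.46 or more, above every library of the other groups. Replicates 5 and 8 had 0.30 and 0.35. Unmapped reads were 24.1% and 23.8% of the libraries of replicates 5 and 8 and 11.0% to 19.5% of the other 4, and their part in the ratio was not tested. The ratio was formed after the values of both genes had been seen and is given as a description, with no test. It uses the unstranded count of Mgll, which left out a larger share of reads in most epileptic sgLacZ libraries than in control libraries. The Faah to Napepld ratio overlapped in all 3 groups, with means of 3.85 ± 0.428 (SD, n = 5), 4.43 ± 0.503 (SD, n = 6) and 4.39 ± 0.254 (SD, n = 6). The Mgll to Abhd6 ratio was 4.43 to 5.49 in control, 3.44 to 5.48 in epileptic sgLacZ and 4.34 to 6.46 in epileptic sgKcna1 libraries.

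**Figure D4:**
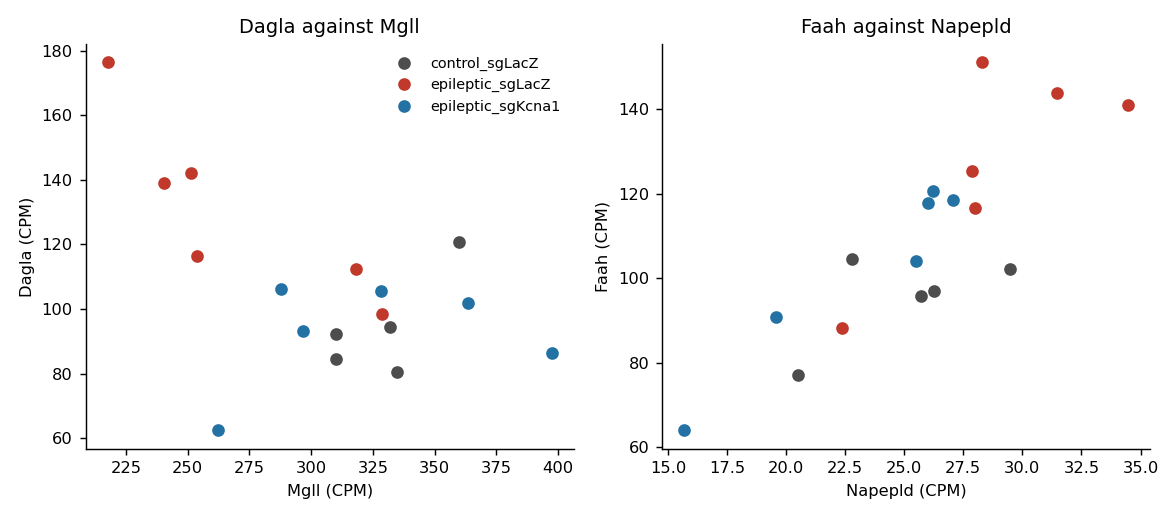
Left, Dagla against Mgll, and right, Faah against Napepld, in CPM, 1 point per library, coloured by group (5 control sgLacZ, 6 epileptic sgLacZ and 6 epileptic sgKcna1). On the left 4 epileptic sgLacZ libraries lie apart, with Mgll at 254 CPM or less and Dagla at 117 CPM or more, and the other 2 lie among the remaining libraries. On the right the libraries of all groups lie along 1 band.

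With group means removed, relations between the 7 genes were computed for all 21 pairs over the 17 libraries, with labels permuted within groups. Napepld and Faah, which make and degrade anandamide, had the highest Pearson correlation (r = 0.88, permutation P = 0.0002, adjusted 0.00325, and Spearman rho = 0.75, permutation P = 0.00144, adjusted 0.00756). Without the 2 libraries farthest from the median of Napepld r was 0.81. Within groups it was 0.68 in the 5 control, 0.84 in the 6 epileptic sgLacZ and 0.97 in the 6 epileptic sgKcna1 libraries. A correlation with Napepld at least that strong in either direction was held by 0.0568% of genes. Both genes also moved with the share of unmapped reads, by r = -0.71 for Napepld and -0.84 for Faah in the same values, and the part of that share in their relation was not tested. By Spearman's rho the closest pairs were those of Dagla with Faah and with Napepld. Dagla went with Napepld (r = 0.69, permutation P = 0.00541, adjusted 0.0284, and rho = 0.77, permutation P = 0.00107, adjusted 0.00756, r = 0.71 without the 2 farthest libraries) and with Faah (r = 0.66, permutation P = 0.0121, adjusted 0.0424, and rho = 0.81, permutation P = 0.00022, adjusted 0.00462, r = 0.72 without the 2 farthest libraries). The unstranded Daglb values went with those of Faah (r = 0.87, permutation P = 0.00031, adjusted 0.00325, and rho = 0.74, permutation P = 0.0014, adjusted 0.00756, r = 0.87 without the 2 farthest libraries). By Pearson's r but not by rho they also passed with Napepld (r = 0.75, adjusted permutation P = 0.0255, rho = 0.60, adjusted 0.0814) and Mgll (r = -0.64, adjusted 0.0350, rho = -0.55, adjusted 0.0968). Daglb moved with the share of unmapped reads too (r = -0.89), and the part of that share was not tested. Correlations as strong were held by 4.13% of genes for Dagla with Napepld, 6.18% for Dagla with Faah and 5.63% for Daglb with Faah. They were common for Daglb with Napepld, at 20.1% of genes, and for Daglb with Mgll, at 32.8%. Cnr1 and Abhd6 passed with no other gene. Dagla and Mgll had r = -0.17 over the 17 libraries (permutation P = 0.573, and rho = -0.23, permutation P = 0.413, r = -0.34 without the 2 farthest libraries). Within groups their r was 0.70 in the 5 control, -0.91 in the 6 epileptic sgLacZ and 0.40 in the 6 epileptic sgKcna1 libraries, and the differences between these were not tested.

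Several of the genes also moved with the share of unmapped reads, with group means removed. Over 17 libraries Faah fell with that share (r = -0.84, permutation P = 0.00047, adjusted over 7 genes 0.00114, and rho = -0.70, permutation P = 0.00455, adjusted 0.0106) and Mgll rose with it (r = 0.75, permutation P = 0.00049, adjusted 0.00114, and rho = 0.77, permutation P = 0.00076, adjusted 0.00266). The unstranded count of Daglb fell with it most closely (r = -0.89, permutation P = 5.0e-05, adjusted 0.00035, and rho = -0.78, permutation P = 0.00053, adjusted 0.00266), and for Napepld Pearson's r passed and rho did not (r = -0.71, permutation P = 0.00929, adjusted 0.0163, and rho = -0.50, permutation P = 0.0512, adjusted 0.0717). Without the 2 libraries farthest from the median share, r was -0.73 for Faah, 0.65 for Mgll, -0.82 for Daglb and -0.49 for Napepld. Such relations are common, since 12.6% of all genes had a correlation with the share at least as strong as that of Faah and 22.9% one as strong as that of Mgll, 6.45% as that of Daglb and 27.6% as that of Napepld. For Dagla r was -0.43 (permutation P = 0.126, adjusted 0.176, and rho = -0.57, permutation P = 0.0276, adjusted 0.0484, r = -0.44 without the 2 farthest libraries), and for Cnr1 it was -0.03 (permutation P = 0.924, and rho = -0.17, permutation P = 0.534, r = -0.21 without the 2 farthest libraries). With the share as a covariate, the log2 fold change of epileptic sgLacZ against control was 0.34 for Dagla, 0.19 for Faah, -0.17 for Mgll and -0.23 for Cnr1, and none passed (edgeR adjusted P = 0.174, 0.279, 0.280 and 0.221). That of Napepld was 0.03, from 0.21 without the covariate, and that of the unstranded count of Daglb 0.37, from 0.77.

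Fold changes in these libraries also followed transcript length. Over 14619 genes with a known length, 83.0% of those tested, the Spearman correlation across genes of the longest transcript with the log2 fold change of epileptic sgLacZ against control was 0.38. Genes are not independent replicates, and no P is given. The median log2 fold change was -0.41 in the decile of genes with the shortest and 0.22 in the decile with the longest transcripts. Dagla, at 5634 bases, belongs to the ninth decile, whose median was 0.22, and Faah, at 3827 bases, to the seventh, whose median was 0.17. Dagla at 0.47 lay within the middle 50% of its decile, which reached from -0.01 to 0.48, and so did Faah at 0.42, with a middle 50% from -0.06 to 0.43. Mgll, at 3991 bases and -0.30, and Cnr1, at 5807 bases and -0.23, both lay below the middle 50% of theirs. With the trends on length and GC content removed from each library, an analysis added after the data had been seen, the log2 fold change was 0.10 for Dagla (edgeR adjusted P = 0.603), 0.13 for Faah (0.443), -0.55 for Mgll (0.0705) and -0.30 for Cnr1 (0.0598). In that fit 0 of the 7 genes passed. The trend was opposite in epileptic sgKcna1 against epileptic sgLacZ libraries, with a Spearman correlation across genes of -0.30, and the comparison shares the epileptic sgLacZ libraries with the first. There Dagla at -0.50 lay below the middle 50% of its decile, which reached from -0.34 to 0.05, and Mgll at 0.27 above that of its own, from -0.30 to 0.08. Faah at -0.31 also lay below that range. With the trends removed the log2 fold change was -0.24 for Dagla and 0.44 for Mgll. In epileptic sgKcna1 against control libraries the correlation was 0.29.

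**Figure D5:**
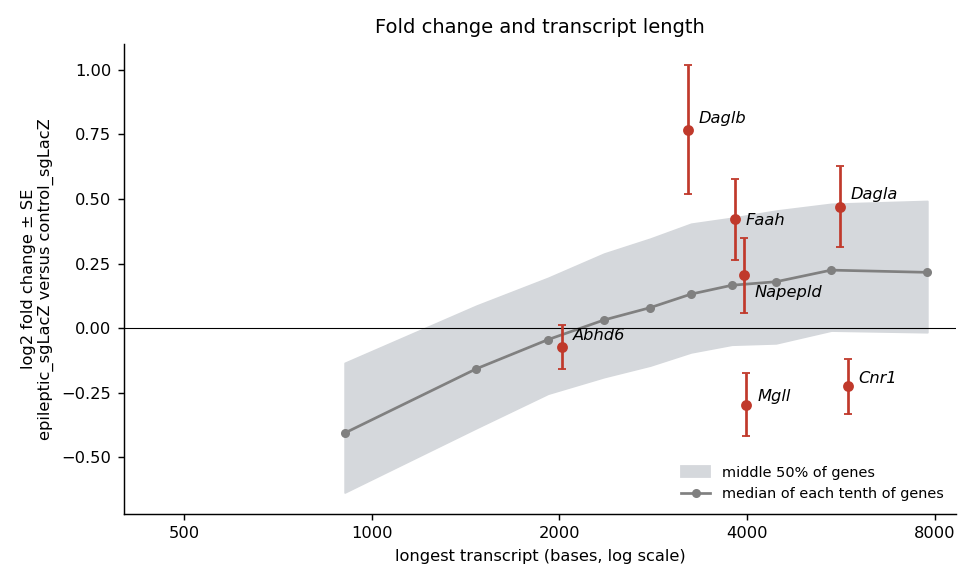
Log2 fold change of epileptic sgLacZ against control (vertical axis) against the longest transcript of a gene in bases (log scale). The grey line joins the medians of the deciles of 14619 genes by length and the grey band holds their middle 50%. Red points are the 7 genes with their SE. Dagla, Faah, Napepld and Abhd6 lie inside the band, Daglb above it and Mgll and Cnr1 below it.

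Another 28 genes of the pathway were examined as a list: further receptors, lipid enzymes, lipid carriers, the receptors and G proteins that drive 2-AG synthesis, and the G proteins of CB1. Cnr2, Gpr55, Trpv1 and Plaat5 did not pass the filter, with at most 22 reads in any library, and 24 were tested. In epileptic sgLacZ against control libraries 3 fell and 1, Homer3, was called higher in the unstranded counts, 4 of 24, against 11.0% of all genes. Before adjustment 11 of the 24 had P below 0.05, against 34.7%. Sexes were uneven, with 2 of 5 control and 4 of 6 epileptic sgLacZ libraries female by their reads, and with sex as a covariate only Homer3 remained called of these 4 (edgeR adjusted P = 0.0493, and 0.0522 to 0.0523 for the other 3). With the unmapped share as a covariate only Gnaq did (-0.39, edgeR adjusted P = 0.0423), and with the trends on length and GC content removed none did. The median log2 fold change of the 24 was -0.06, and of all genes 0.02. No gene of the list was called in epileptic sgKcna1 libraries against either other group by edgeR, where 7 and 0 of the 24 had an unadjusted P below 0.05, against 19.2% and 6.77% of all genes. DESeq2 and limma voom called none there either.

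The list was drawn up by role, and those that fell come from its drivers of 2-AG synthesis and its lipid carriers. Drivers of that synthesis went both ways, with the muscarinic receptor Chrm1 at 0.34 and unstranded Homer3 at 1.20 on the log2 scale. Gnaq, the G protein alpha subunit that couples group I metabotropic glutamate and muscarinic receptors to phospholipase C, had 541 ± 55.8 CPM in control (SD, n = 5) and 334 ± 89.8 CPM in epileptic sgLacZ (SD, n = 6) libraries (log2 fold change -0.70 with an SE of 0.22, edgeR adjusted P = 0.0499). Homer1, a scaffold that ties metabotropic glutamate receptors to the postsynaptic density, had 111 ± 7.77 CPM in control (SD, n = 5) and 84.1 ± 7.38 CPM in epileptic sgLacZ (SD, n = 6) libraries, with every epileptic library below every control (log2 fold change -0.40, SE 0.13, edgeR adjusted P = 0.0489). In epileptic sgKcna1 libraries it had 117 ± 28.5 CPM (SD, n = 6), with replicate 12 at 172 and the others at 90.4 to 118. Fabp7, a fatty acid binding protein of astrocytes and neural progenitors that can carry endocannabinoids, had 64.1 ± 16.4 CPM (SD, n = 5) in control and 31.9 ± 14.6 (SD, n = 6) in epileptic sgLacZ libraries (log2 fold change -1.01, SE 0.27, edgeR adjusted P = 0.0355). Homer3, another Homer scaffold, was the gene called higher in the unstranded counts, with 10.2 ± 2.24 CPM (SD, n = 5) in control and 23.4 ± 9.92 (SD, n = 6) in epileptic sgLacZ libraries (log2 fold change 1.20, SE 0.30, edgeR adjusted P = 0.0333). Its unstranded count leaves out 752 to 1721 reads per library shared with Ddx49, so that its level rests on 12.2% to 37.6% of its strand sum in these 2 groups. The share was above that of every control library in 5 of the 6 epileptic sgLacZ libraries. With both strand counts added the log2 fold change was 0.29 and did not pass (edgeR adjusted P = 0.0889). Levels in epileptic sgKcna1 libraries were 502 ± 227 CPM for Gnaq, 43.9 ± 14.5 for Fabp7 and 13.0 ± 4.31 for unstranded Homer3 (SD, n = 6). For Gnaq replicate 12 was at 962 CPM and the others at 366 to 443.

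Of the next 6 genes by P-value, which did not pass, Grm5, the metabotropic glutamate receptor most tied to 2-AG release, had 245 ± 13.3 CPM (SD, n = 5) in control and 188 ± 23.2 (SD, n = 6) in epileptic sgLacZ libraries, with no overlap (log2 fold change -0.38, SE 0.14, edgeR adjusted P = 0.0680). Groups did not overlap for 3 of the 24 genes, Grm5, Homer1 and Gdpd1, against 4.39% of all genes (Gdpd1 lies outside the naming rule and was named after its values were seen). The muscarinic receptor Chrm1 had a log2 fold change of 0.34, the anandamide pathway lipase Abhd4 of 0.35, the monoacylglycerol lipase Abhd12 of 0.33, the phospholipase Ddhd1 of 0.41 and the CB1-interacting protein Cnrip1 of -0.26 (edgeR adjusted P = 0.0726, 0.0598, 0.112, 0.0598 and 0.0660). Ddhd1 and Cnrip1 also share reads with overlapping genes, which the unstranded count leaves out. The unstranded count of Cnrip1 was 91.9% to 96.7% of its strand sum in control and 68.7% to 93.8% in epileptic sgLacZ libraries. For Ddhd1 it was 49.4% to 56.1% and 53.7% to 76.5%. Their fold changes are those of the unstranded counts alone, and no direction is given for either gene. Leaving out 1 library changed the calls of the list and those of all genes together. Without control replicates 13, 14, 16 or 23 or epileptic sgLacZ replicates 4, 7 or 9, 0 genes of the list and 0 of all genes were called, and without control replicate 15 it was 0 and 519. Without epileptic sgLacZ replicate 5 it was 10 of the list and 5526 of all genes, and without epileptic sgKcna1 replicate 12 it was 14 and 4777. The list had 2 calls without epileptic sgLacZ replicate 6 or epileptic sgKcna1 replicates 1, 2, 3 or 10, where 952 to 1524 of all genes were called.

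Some markers of cells that could carry these transcripts were called between epileptic sgLacZ and control libraries. Of all genes 11.0% were called there, and 34.7% had an unadjusted P below 0.05. Of 5 astrocyte markers 2 were called higher, Gfap by 0.60 on the log2 scale (edgeR adjusted P = 0.0447) and Aldh1l1 with 0.33 (0.0391), and the 5 summed to 931 to 1011 CPM in control and 1025 to 1472 in epileptic sgLacZ libraries. Of 5 excitatory neuron markers only Slc17a7 was called, at 0.77 (edgeR adjusted P = 0.0366), and their sum was 3248 to 3818 CPM in control and 3479 to 5337 in epileptic sgLacZ libraries. Camk2a at 0.07 and Prox1 at 0.29 were also above 0, and Neurod6 at -0.05 and Neurod2 at -0.31 were below. Of 5 microglia markers only Csf1r was called, at 0.38 (edgeR adjusted P = 0.0356), with sums of 271 to 318 and 238 to 404 CPM. Tmem119 at 0.25 was also above 0, and Cx3cr1 at -0.27, P2ry12 at -0.13 and C1qa at -0.12 were below. None of 6 inhibitory neuron markers was called in edgeR, while 3 had an unadjusted P below 0.05. These 3 were lower, Pvalb at -1.01, Sst at -0.80 and Vip at -0.38, while Gad1 was at -0.12, Gad2 at 0.27 and Slc32a1 at 0.14. The 6 summed to 1224 to 1532 CPM in control and 819 to 1380 CPM in epileptic sgLacZ libraries. Of 4 ependymal markers 1 was called, lower, and none of 5 oligodendrocyte, 4 choroid plexus, 3 endothelial or 3 thalamic markers was, with 1, 0, 1 and 0 of them at an unadjusted P below 0.05. The part of these cells in the values of the 7 genes was not tested.

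The genes whose levels over all 17 libraries were most like those of Dagla were Cntn2 (Pearson r = 0.95, and 0.94 with group means removed), Camk2b (0.93 and 0.91) and Orai2 (0.93 and 0.88), out of 9317 genes compared. For Mgll they were Rbfox3 (r = 0.95, and 0.92 with group means removed), Fnta (0.94 and 0.91) and March2 (0.93 and 0.89). Cnr1 had no match above 0.9, and its nearest were Dlx2 (r = 0.79, and 0.78 with group means removed), Mtss1 (0.76 and 0.70) and Zkscan1 (0.76 and 0.69). By contrast 14 genes were above 0.9 with Dagla and 42 with Mgll. The libraries share depth, unmapped share and any length trend, so these values describe likeness over these libraries only.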

How the data were processed

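RNA-seq was read from 17 hippocampal libraries. The authors aligned reads to mm10 with STAR 2.7 and deposited raw counts of reads per gene, with no normalization, for either strand and for each strand. The annotation release was not given in the sources used here. The labels name an unstranded kit and the methods a stranded one. The ratio of reverse to forward reads was 0.994 to 0.998, so unstranded counts were used, and reads shared by overlapping genes on opposite strands are lost from these.

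Counts were filtered (filterByExpr), scaled (TMM) and tested with edgeR 4.0.16 (quasi-likelihood F test, 3 groups, 17 libraries, no covariate, R 4.3.3), with Benjamini-Hochberg adjustment over 17615 genes and a threshold of 0.05. Intervals use the t distribution of that fit. DESeq2 1.42.0, the study's tool, and limma 3.58.1 were alternatives. Exact permutation tests used log2 CPM (prior count 2), and correlations 100000 permutations within groups. Scripts were tested on simulated data. Pairs of libraries in a group differed by more than sampling noise (chi-square per degree of freedom 8.67 or more), so none was counted as a copy. Symbols came from a gene name table (32620 of 55450 genes, with Plaat5 found under an older name), coordinates from RefSeq GRCm38.p6, and transcript lengths from mm9.

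The 7 genes and all lists were chosen with earlier results of these data known. Named from the list of 28 are the 10 genes with the smallest P in epileptic sgLacZ against control at a mean of at least 5 CPM, plus any called elsewhere. Genes of like pattern are the 3 with the highest r, among genes of at least 5 CPM whose strand counts add up to no more than 5% above the unstranded count.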

Additional observations from a re-analysis of the deposited data

Results flagged for a closer look

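Among the 7 genes and the 10 named pathway genes, a single library stood apart from the rest of its group in 4 of 51 gene and group combinations, and chance alone gives about 1 in 20. None was one of the 7 genes, and 3 of the 4 came from 1 library, so they are not independent. In epileptic sgKcna1 replicate 12, the library with 41.5% unmapped reads, Gnaq was at 962 CPM against 366 to 443 in the other 5 libraries. Homer1 was at 172 CPM there against 90.4 to 118, and Grm5 at 328 CPM against 175 to 217. In control sgLacZ replicate 13, Abhd4 was at 45.1 CPM against 48.9 to 49.6 in the other 4 libraries.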

How the results depend on the processing

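In epileptic sgLacZ against control libraries 0 of the 7 genes were called, and 0 to 4 with 1 library left out. The number was 2 with DESeq2, 1 with both strand counts added, 1 with no filter, 3 with only those 2 groups fitted and 4 with limma voom, and 0 with size factors by relative log expression, a sex covariate, the unmapped share or the trends on length and GC removed. Of the 28 pathway genes 4 were called, and 7 with DESeq2, 8 with only 2 groups, 15 with voom, 1 with the sex covariate, 1 with the unmapped share, 0 with the trends removed and 0 to 14 with 1 library left out. Over all genes the 1940 calls became 3439, 3045, 7301, 516, 428 and 520, in that order of settings, and 0 to 5526 with 1 library left out. Against epileptic sgLacZ, epileptic sgKcna1 libraries had 0 to 1 calls of the 7 genes and 0 to 4 of the list with 1 library left out. Against control sgLacZ they had 0 in every fit.

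Signs turned for small values and for Daglb. With both strand counts added Daglb was -0.72, 0.35 and -0.36 in the 3 comparisons, from 0.77, -0.42 and 0.35, since shared reads are then counted. With the unmapped share as a covariate it was 0.0027 in the second. In epileptic sgKcna1 against epileptic sgLacZ, Cnr1 was -0.026 with voom and -0.0090 to 0.098 with 1 library left out (lowest without epileptic sgLacZ replicate 8), and Abhd6 was 0.013 with the sex covariate and -0.072 to 0.010 with 1 library left out (highest without epileptic sgKcna1 replicate 10). In epileptic sgKcna1 against control, Dagla was 0.013 with voom and -0.082 to 0.075 with 1 library left out, and Mgll was -0.11 to 0.025, above 0 in 2 and 3 of these fits. The cause of these was not tested. A prior count of 0.5 or no scaling left 0 of 21 permutation tests past adjustment. No paired analysis was possible because the groups share no replicate number. The reads shared with Rac1 limit Daglb, with 98 unstranded reads of 3186 on both strands in the lowest library.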
